A study of Rattus norvegicus with 4 samples.

Results

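The natriuretic peptide system was represented on these rat cDNA arrays by 4 of 1185 spots, found as every spot whose name contained the word natriuretic. They were the atrial natriuretic peptide clearance receptor (NPR-C, spot D02h) and the precursors of the 3 peptides, ANP (spot E04a), BNP (spot E02n) and CNP (spot E03k). The family was chosen with the ratio of the clearance receptor between the groups known, so that the values of its members are given as a description, with no test. RNA came from the mesenteric white adipose tissue of female Wistar rats that weighed from 220 to 230 g at the start. The control group was 2 rats gavaged with sunflower oil, and the other group was 2 rats gavaged with oleoyl-estrone (OE, the oleic acid ester of estrone) in the same oil at 10 μmol/kg per day. Tissue was taken at 48 h, each rat was hybridized on its own nylon membrane, and the arrays are named control 1, control 2, OE 1 and OE 2. The whole tissue was used, food was freely available and intake was not matched between the groups, and no age is given in the sources used here.

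Natriuretic peptides lower blood volume and pressure. ANP and BNP are released mainly by the heart and CNP by endothelium and brain, and they act through receptors that are guanylyl cyclases and make cGMP. NPR-C binds all 3 peptides but has no cyclase, and removes them by internalization. In human adipocytes the cGMP made in response to ANP stimulates lipolysis, and NPR-C is known to be expressed in adipose tissue. In the reference gene table of the rat assembly GRCr8, all 4 symbols (Npr3, Nppa, Nppb and Nppc) were found, and the genes of ANP and BNP were next to each other with 0 genes between. No spot named as a natriuretic peptide receptor with cyclase activity was among the 4, but a spot labelled only as the membrane form of guanylyl cyclase is described with the related genes.

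The adjusted intensity is the brightness of a spot minus the background of its array, which lay between 54 and 61. A spot was over the detection limit where its adjusted intensity reached 2 times the background, which made a limit of 108 in control 2 and of 120 to 122 on the other arrays, and 285 of the 1185 spots (24.1%) reached it on at least 1 array. Adipocyte markers were present, with FABP4, the fatty acid carrier of adipocytes, over the limit on all 4 arrays, although leptin stayed between 0 and 11. The arrays differed in their marker levels. On the scale of array medians, the value over the 50th percentile of the same array, the sum of 9 adipocyte markers was 273 in control 1, 2299 in control 2, 436 in OE 1 and 530 in OE 2. FABP4 made up between 91.8% and 94.4% of this sum, and the other 8 markers summed to 20.4 in control 1, 184 in control 2, 35.6 in OE 1 and 29.8 in OE 2. The sum of 7 leukocyte markers was 246 in control 1, 23.7 in control 2, 273 in OE 1 and 137 in OE 2. Control 2 was the highest array for 8 of the 9 adipocyte markers and the lowest for 6 of the 7 leukocyte markers, with CD3 zeta and CD8 at 0. Of the 5 intestine markers 4 were over the limit in OE 2 and none on another array, and 0 of the 5 pancreas and 0 of the 4 endothelium markers reached it on any array.

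The clearance receptor was lower on both OE arrays than on both controls, but only control 2 gave a signal over the limit. Its adjusted intensity was 36 in control 1, 201 in control 2, 22 in OE 1 and 14 in OE 2. Against the detection limit of each array these were 30.0%, 186%, 18.0% and 11.5%. Control 2 thus stood far above the other arrays, and the others were all in the range where spots were not over the limit. In array medians the values were 2.57 in control 1, 22.3 in control 2, 1.00 in OE 1 and 0.824 in OE 2, so that the groups did not overlap. The mean was 12.5 ± 14.0 (SD, n = 2) for the control group and 0.912 ± 0.125 (SD, n = 2) for the OE group, and the ratio of OE to control was 0.0732. As for CNP below, the means differed by less than the SD of the controls. Without background subtraction the ratio was 0.367, and with the normexp correction it was 0.372. The place of the spot within its array, which no scaling can change, moved in the same order. It was brighter than 71.9% of the spots in control 1, 90.5% in control 2, 49.1% in OE 1 and 44.5% in OE 2.

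**Figure D1:**
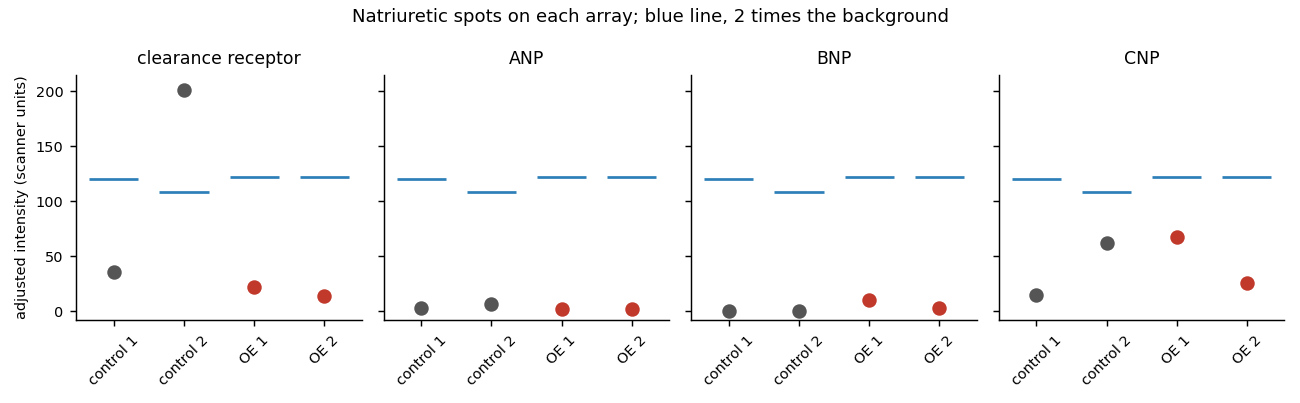
Adjusted intensity (scanner units) of the 4 natriuretic spots on each array, grey for controls and red for OE, with the detection limit of each array as a blue line. The clearance receptor in control 2, at 201, is the value over the limit, and the remaining 15 values lie under it.

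A ratio under 0.5 was found for 18.3% of the 922 spots that entered the comparison, both OE arrays lay below both controls for 15.8%, and the 2 together held for 8.79%, the clearance receptor among them by its choice. The size of the ratio rested on the controls, which differed by 8.69-fold for this spot. A difference between the controls at least as large was seen for 7.48% of the 922 spots. The OE arrays differed by 1.21-fold. With control 1 as the only control the ratio was 0.355, and with control 2 as the only control it was 0.0408. Taken pair by pair, the ratio was 0.389 for OE 1 and control 1, 0.320 for OE 2 and control 1, 0.0448 for OE 1 and control 2 and 0.0369 for OE 2 and control 2. Each pair was under 0.5, and the pairs with control 1 compared values that were all under the detection limit. Since the RNA came from whole tissue, fewer cells that carry the receptor and less of its RNA per cell cannot be told apart.

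Only control 2 exceeded the limit for 27 of the 1185 spots (2.28%). The clearance receptor was among them. All 27 entered the comparison, and 24 of them had a ratio under 0.5, against 18.3% of the 922 spots. Selecting spots for a high value in control 2 alone favours a low ratio, so the 24 follow largely from the selection and are no test. Both OE arrays lay below both controls for 5 of the 27, against 15.8% of the 922. The 4 spots next to the clearance receptor by spot code had adjusted intensities of at most 50. Among them were the spot labelled insulin receptor 1 and a receptor for angiotensin and vasopressin. In control 2 the spot labelled insulin receptor 1, the brightest of the 4 there, had 18. No neighbour by spot code was thus brighter than the clearance receptor in control 2, and signal passing between the spots was not tested.

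Because the adipocyte marker levels differed between the controls, the clearance receptor was also read relative to FABP4, which was decided with the values in view. Per 1000 units of FABP4 it had 10.2 units in control 1, 10.6 in control 2, 2.50 in OE 1 and 1.64 in OE 2. The controls, which were 8.69-fold apart in array medians, were 1.04-fold apart on this scale, and both OE arrays stayed below them with a ratio of 0.200. With this scaling 8.53% of the 961 spots that entered had a ratio under 0.5, and 2.08% had such a ratio and no overlap. Relative to the geometric mean of the 8 adipocyte markers with an adjusted intensity above 0 on all arrays, the values were 0.672 in control 1, 0.690 in control 2, 0.211 in OE 1 and 0.173 in OE 2. Of these markers only FABP4 was over the detection limit on all 4 arrays, and FATP1 and aquaporin 7 were over it on none. The ratio was 0.281, and 3.28% of 1006 spots were under 0.5 and 0.398% were under 0.5 without overlap. The receptor was chosen for its low ratio and the scalings with the values in view, so these shares are no test of it. Scaling to the markers also raised the median log2 ratio of all spots by 0.72, which leaves fewer spots under 0.5. On 3 of the 4 arrays the receptor itself was under the detection limit, and the part of the differing marker levels in its ratio was not tested.

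The adipocyte markers did not all behave alike relative to FABP4. LPL, which releases fatty acids from lipoproteins, had 32.6 units per 1000 of FABP4 in control 1, 39.2 in control 2, 38.8 in OE 1 and 28.4 in OE 2, and the groups overlapped. HSL, the lipase that natriuretic peptide signalling activates in human adipocytes, had 7.64 and 15.8 in the controls and 21.7 and 11.0 in the OE arrays. Perilipin, the coat protein of the lipid droplet, had 5.38 and 9.56 in the controls and 15.4 and 10.2 in the OE arrays. Perilipin was thus higher on both OE arrays, and HSL overlapped between the groups. Fatty acid synthase (FAS), which makes fatty acids, had 17.0 and 9.56 in the controls and 4.43 and 1.76 in the OE arrays. Acetyl-CoA carboxylase (ACC), the step before it, had 9.63 and 7.25 in the controls and 4.20 and 3.29 in the OE arrays. The groups of both lipogenic enzymes stayed apart, with ratios of 0.233 for FAS and 0.444 for ACC, beside 0.200 for the clearance receptor. Aquaporin 7, the glycerol channel of adipocytes, had a ratio of 0.356 without overlap, and the fatty acid transporter FATP1 one of 0.715 without overlap, but neither spot exceeded the detection limit on any array. FAS and ACC exceeded it in control 2 only. FABP4, LPL, HSL, FAS, ACC and FATP1 are among the genes the study picked on these same arrays, so their direction here is no independent evidence. The study also measured these genes by real-time PCR and reported all of them lower with OE, HSL not significantly. FABP4, the reference of this scaling, is thus itself among the genes reported lower.

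**Figure D2:**
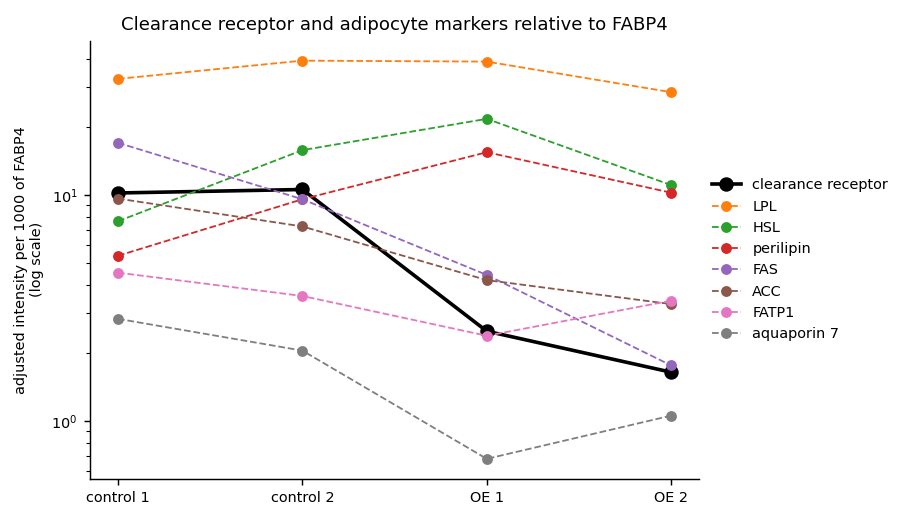
Adjusted intensity per 1000 units of FABP4 (log scale) on each array for the clearance receptor (black) and 7 adipocyte markers. Lines only join the values of 1 spot, and levels of different spots are not comparable. The clearance receptor is at 10.2 and 10.6 in the controls and at 2.50 and 1.64 in the OE arrays, while LPL stays between 28.4 and 39.2.

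The genes whose pattern over the 4 arrays was most like that of the clearance receptor were looked for among the 284 other spots over the limit on at least 1 array, by the root mean square difference of their log2 values after centring each spot. The nearest was FAS, with a difference of 0.41. It was followed by the growth hormone receptor, through which growth hormone promotes lipolysis, with 0.50, ACC with 0.62, aldolase A, a glycolytic enzyme, with 0.67 and mast cell protease 3 with 0.73. The median over all 284 spots was 1.76. Likeness here is over 4 arrays only and is dominated by control 2. The growth hormone receptor, for example, had 8.86 array medians in control 1, 117 in control 2, 8.45 in OE 1 and 5.94 in OE 2. Aldolase A, over the limit on every array, had 10.7, 76.8, 8.95 and 8.24 in the same order. For both genes control 1 lay close to the OE arrays. LPL, with a difference of 1.13, ranked 33rd and FABP4, with 1.20, ranked 44th, and of the leukocyte markers CD45 ranked 270th with 3.51.

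**Figure D3:**
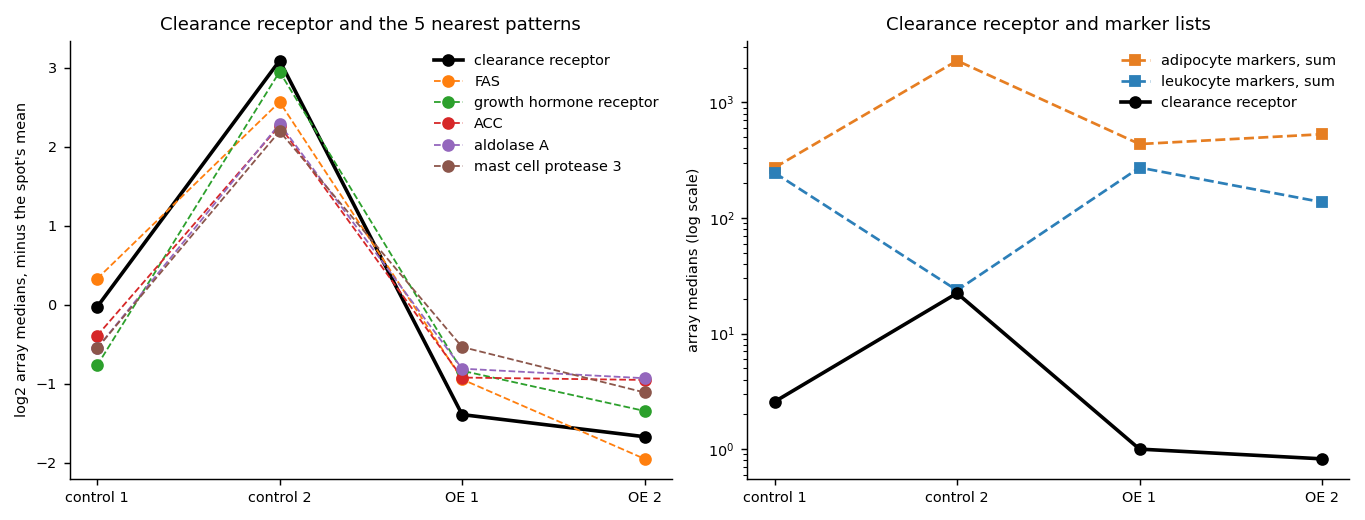
Left, log2 values in array medians, minus the mean of each spot, for the clearance receptor (black) and the 5 spots nearest to it in pattern. Right, the clearance receptor beside the summed adipocyte and leukocyte markers, in array medians on a log scale. Control 2 is the highest array for the receptor (22.3) and the adipocyte sum (2299) and the lowest for the leukocyte sum (23.7).

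None of the 3 peptide precursors exceeded the detection limit on any array. ANP, the main peptide of the atria, had an adjusted intensity of 3 in control 1, 7 in control 2, 2 in OE 1 and 2 in OE 2. BNP, named for its discovery in brain but made mostly by the ventricles, had 0 on both controls, 10 in OE 1 and 3 in OE 2. These values were at most 8.20% of the limit, and the order of the arrays within them is not interpretable at this signal. ANP and BNP did not enter the comparison, because they did not lie above the floor of 0.235 array medians on both arrays of a group, and no ratio is given for them. The 7 other spots whose names hold the word heart or cardiac, H-FABP among them, were looked up after the other values were seen. All were under the limit, with adjusted intensities between 0 and 19. Of the spots next to that of BNP by spot code, BTG2, a growth arrest gene, reached 439 in OE 1. On that array BNP had its value of 10, and signal passing between the spots was not tested.

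CNP gave a signal over background on every array but stayed under the detection limit. Its adjusted intensity was 15 in control 1, 62 in control 2, 68 in OE 1 and 26 in OE 2, between 12.5% and 57.4% of the limit. In array medians it had 1.07 in control 1, 6.89 in control 2, 3.09 in OE 1 and 1.53 in OE 2. Both OE arrays lay between the controls, and the controls differed by 6.43-fold. The mean was 3.98 ± 4.11 (SD, n = 2) for the control group and 2.31 ± 1.10 (SD, n = 2) for the OE group, with a ratio of 0.580, and the means differed by less than the SD of the controls. It was 0.335 against control 2 alone and 2.16 against control 1 alone, and without scaling between arrays it was 1.22. No direction can therefore be given for CNP. Of the 2 natriuretic spots that entered the comparison, the clearance receptor but not CNP had both OE arrays below both controls. The same held for 15.8% of all 922 spots, and the receptor was chosen with its ratio known.

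**Figure D4:**
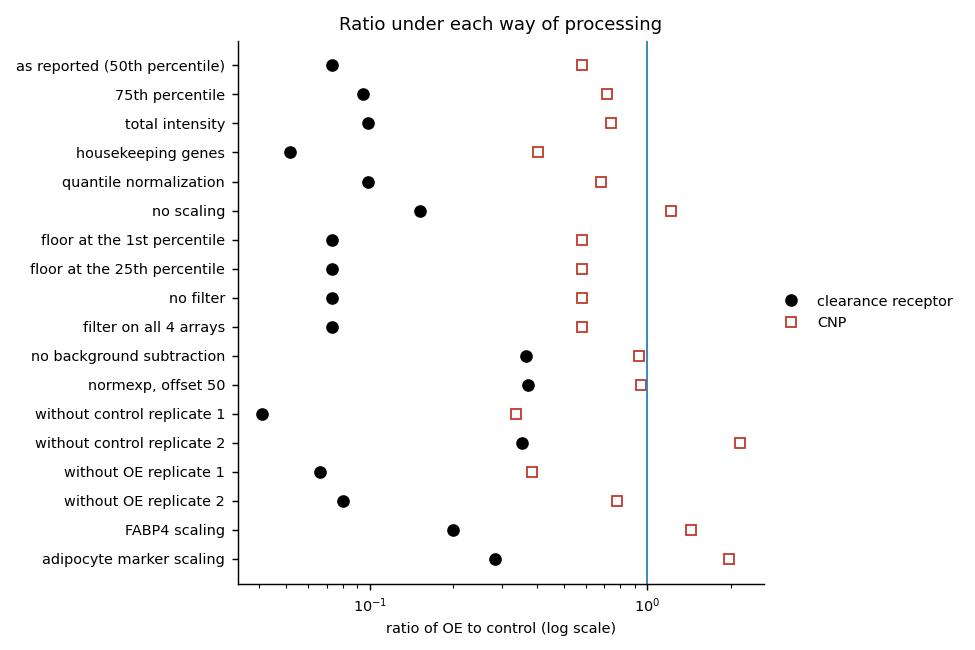
Ratio of OE to control (log scale) for the clearance receptor (black circles) and CNP (red squares) under each way of processing, with equality as a blue line. The clearance receptor stays between 0.0408 and 0.372, while CNP runs from 0.335 to 2.16 and crosses equality.

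Genes that act with or beside the natriuretic peptides were taken from a list of 23 spots for guanylyl cyclases, phosphodiesterases, nitric oxide synthases and the endothelin, renin-angiotensin and vasopressin systems. Of these, 19 entered the comparison, and 20 of the 23 never exceeded the detection limit. With limma and Benjamini-Hochberg adjustment over the 922 spots 0 of the 19 had an adjusted p under 0.05, where 0 of all 922 (0%) did, with 0.957 as their smallest adjusted p. The limma counts at an unadjusted p under 0.05 were 0 of the 19 and 19 of the 922. A ratio under 0.5 was found for 3 of the 19 spots, against 18.3% of all, and a ratio over 1.5 for 2, against 18.9% of all. The median log2 ratio was -0.22 over the 19 and -0.16 over all 922. With 2 arrays a group, the smallest p of a two-sided exact permutation test is 0.333, and no such test was run.

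The spot labelled guanylyl cyclase, membrane form, belongs to the class of enzyme that makes cGMP at the cell surface, and the label does not say which receptor it is. Its adjusted intensity was 65 in control 1, 114 in control 2, 123 in OE 1 and 70 in OE 2, over the limit in control 2 and OE 1. In array medians it had 4.64 in control 1, 12.7 in control 2, 5.59 in OE 1 and 4.12 in OE 2, so that the groups overlapped. Its ratio was 0.561 and its log2 fold change -0.68 (SE 0.74), with an adjusted p of 0.957 by limma. The cyclases of intestine and of olfactory neurons, which serve other ligands, had adjusted intensities between 0 and 18.

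Phosphodiesterases break down cyclic nucleotides and so end the signal. Phosphodiesterase 4B, which acts on cAMP, was over the limit on 3 arrays, with 20.9 array medians in control 1, 9.00 in control 2, 17.1 in OE 1 and 15.2 in OE 2. Both OE values lay between the controls, and the ratio was 1.08. The hormone-sensitive phosphodiesterase, which in adipocytes mediates the antilipolytic action of insulin, had 1.64 in control 1, 7.22 in control 2, 5.32 in OE 1 and 5.18 in OE 2 and stayed under the limit. Its OE values also lay between the controls, with a ratio of 1.18. Angiotensin converting enzyme, which makes the pressor peptide that natriuretic peptides oppose, had 8 in control 1, 110 in control 2, 20 in OE 1 and 171 in OE 2 as adjusted intensity. It was over the limit on 1 array of each group, control 2 and OE 2, and the directions of its ratio of means, 0.857, and of its log2 fold change, 0.19 with a standard error of 1.87, differed. The intestine markers were over the limit in OE 2 as well, and their part in this value was not tested.

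The remaining spots past a ratio of 0.5 or 1.5 were under the detection limit on all 4 arrays. The ratio was 0.418 for nitric oxide synthase 1, the neuronal form, 0.445 for endothelin receptor A, which mediates constriction by endothelin, and 0.483 for the mineralocorticoid receptor, the receptor of aldosterone. Both OE arrays lay below both controls for these 3, with adjusted intensities of at most 13, and likewise for the intestinal guanylate cyclase, whose ratio was 0.736. This made 4 of the 19 spots, against 15.8% of all 922. Both OE values of nitric oxide synthase 1 were at or under the floor of 0.235 array medians, which thus set its ratio. The OE 2 values of endothelin receptor A, the mineralocorticoid receptor and the intestinal guanylate cyclase were under the floor and were raised to it. The ratio was 1.73 for endothelin converting enzyme, with 22 and 7 in the controls and 48 and 32 in the OE arrays. It was 2.70 for the angiotensin/vasopressin receptor, whose 50 in OE 2 stood beside 13 in OE 1, 15 in control 1 and 0 in control 2. For this ratio the value of control 2 was raised to the floor. limma gave the 5 spots past a ratio of 0.5 or 1.5 log2 fold changes between -1.31 and 1.39, and an adjusted p of 0.957 each.

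**Figure D5:**
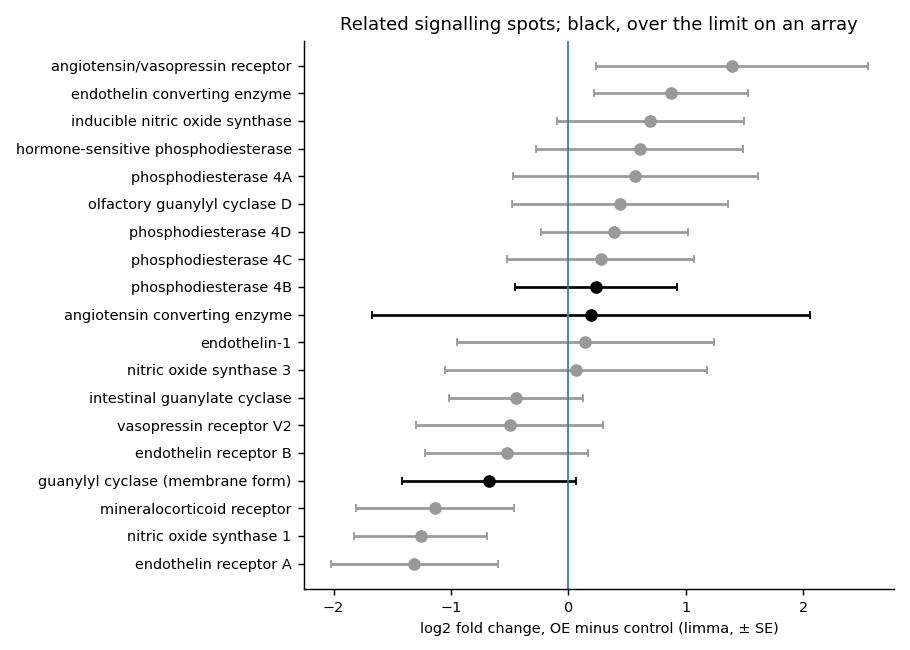
log2 fold change (OE minus control, limma) with its standard error for the 19 related spots that entered the comparison, black where the spot exceeded the detection limit on at least 1 array. The values lie between -1.31 and 1.39, and none had an adjusted p under 0.05.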

How the data were processed

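RNA of 2 control and 2 OE-treated rats was hybridized as 33P-labelled cDNA and imaged with a phosphorimager. The authors deposited spot, background and adjusted intensity (spot minus background, 0 where negative) for 1185 spots of each array, from the Atlas Image software, without scaling between arrays. The files carried 12 further columns, from a second array each, and the software's ratio and difference of the pair, which were not used. The series table of deposited intensities has row names without genes, so it served only for counts over all spots.

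Following the methods, each array was scaled to its 50th percentile. The normalization to controls and the control strength filter of GeneSpring, which the methods name, were not repeated. In their place, and not from the methods, values were floored at the 10th percentile of positive scaled values (0.235), and spots above the floor on both arrays of a group entered (922). Ratios are of group means. The log2 fit used limma (version 3.58.1, R version 4.3.3). Its code was run on simulated data with equal noise for all spots, which does not show how well it finds changes on these arrays. The number of arrays limits the precision.

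The members, gene lists and tests were chosen with earlier results of these data known. Named are all natriuretic spots, related spots over the detection limit or past a ratio of 0.5 or 1.5, the 5 nearest patterns to the clearance receptor, and neighbouring spots over the limit. The spot insulin receptor 1, LPL, HSL, perilipin, aquaporin 7, FATP1, leptin and CD45 come from the marker lists or were chosen after their values were seen. Alternatives were other scalings, floors, filters, background corrections, leaving out each array, a replicate block and an intensity trend.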

Additional observations from a re-analysis of the deposited data

How the results depend on the processing

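The ratio of the clearance receptor stayed under 0.5 under all 17 alternatives that gave it a value, between 0.0408 and 0.372, and both OE arrays stayed below the controls. The other floors and filters could not change it from 0.0732, since its values lay above every floor. All alternatives reuse the same arrays and a spot chosen with its ratio known, so their number is no independent evidence. The ratio moved by more than the spread between arrays to 0.367 without background subtraction, 0.372 with normexp and 0.281 with scaling to the adipocyte markers. It ran from 0.0408 (without control 1) to 0.355 (without control 2) when 1 array was left out. Scaling to FABP4 or to the adipocyte markers was chosen after seeing the data. The median log2 ratio of all spots moved by -0.75 with scaling to the housekeeping genes, 0.79 without scaling, 0.23 with FABP4, 0.72 with the adipocyte markers and 0.13 without background subtraction or with normexp. Relative to that median, the log2 ratio of the receptor was -3.61 as reported and lay between -4.24 and -1.39 over the alternatives. CNP changed direction with 4 of them, at 1.22 without scaling, 1.44 with FABP4, 1.97 with the adipocyte markers and 2.16 without control 2. The series table gave no value for either spot, and ANP and BNP had none to compare. A detection limit of 1 time the background was reached by 3 of 16 natriuretic values, and limits of 2 and 3 times by 1 each.

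limma gave 0 spots at an adjusted p under 0.05 under all 20 alternatives, with 1 to 258 spots at an unadjusted p under 0.05 and a smallest adjusted p between 0.171 and 0.999. A lone array left in a group was taken to vary as the opposite group does. With the replicate block the count was 0, with 17 at an unadjusted p under 0.05, and the deviations of same-numbered arrays had a correlation of 0.0495 across spots, which gives no pairing of rats by number. The 169 lower and 174 higher spots became 29 and 484 without scaling, 422 and 48 after scaling to housekeeping genes, 10 and 76 if no background was subtracted, 10 and 82 with normexp, 82 and 264 with FABP4 and 33 and 485 with the adipocyte markers. The higher spots were 110 with the floor at the 25th percentile and 102 with the filter on all 4 arrays. Leaving out 1 array gave 124 (without control 2) to 313 (without control 1) lower and 191 (without OE 1) to 314 (without control 2) higher spots. The cause of these shifts was not tested.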
